A study of Saccharomyces cerevisiae with 3 samples.

Results

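The head and 3′ minor domain of the yeast small ribosomal subunit were examined as nucleotides 1145 to 1800 of 18S rRNA, the last 656 of its 1800 nucleotides (36.4%). They were delimited by position, with earlier results of these data known. The complete pileups list 6983 nucleotides in 8 segments of rDNA. The measurement was PAR-CRAC, in which yeast is grown with 4-thiouracil and irradiated at 365 nm, so that 4-thiouridine in RNA crosslinks to protein that touches it. RNA fragments attached to a tagged protein are then purified and sequenced, and a crosslinked 4-thiouridine is often read as C, which appears as a T-C substitution. The 3 libraries were 2 from yeast that expressed Get4-HTP (Get4-HTP 1 and Get4-HTP 2) and 1 from untagged wild type yeast (WT). All cells were BY4741 grown with 4-thiouracil and irradiated in the same way. Get4 carried its C-terminal His6-TEV-ProtA tag at the genomic locus. In WT no protein carried the tag, so that its reads are the background of the purification. The WT library was amplified with more PCR cycles than the Get4-HTP libraries, and strain and PCR cycles cannot be told apart. WT and Get4-HTP 1 shared a run code, and Get4-HTP 2 had another.

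Get4 forms a complex with Get5 that binds ribosomes and recruits Sgt2, which captures tail-anchored membrane proteins. These proteins are then handed on within the GET pathway for insertion into the endoplasmic reticulum. The 3′ major domain of 18S rRNA folds into the head of the 40S subunit, which swivels during translocation and lines the entry path of mRNA and the binding sites of tRNA on the small subunit. The 3′ minor domain consists of helix 44, a long stem on the face that joins the 60S subunit, and helix 45 near the 3′ end. The upper end of helix 44 holds the decoding centre, where codon and anticodon are inspected. The last nucleotide of 18S rRNA is made by cleavage at site D, which separates it from the spacer ITS1 in the last step of its maturation.

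Several stretches of this RNA are shown because the results below turn on them. They are written 5′ to 3′ in the DNA letters of the deposited pileups. The first is the stretch with the most hits, nucleotides 1334 to 1395, with T1361, T1362, T1363 and T1372 in capitals. The second surrounds T1579, in capitals, which of the T positions with at least 30 hits in each library was substituted in the largest share of reads. The third runs from T1630 into helix 44, with T1630 and T1657 in capitals. The fourth surrounds the T of helix 31 that is hypermodified in mature 18S rRNA, in capitals. The last is the 3′ end from nucleotide 1755, with the 2 adenosines of the decoding centre, the acetylated C of helix 45 and the 2 dimethylated adenosines of helix 45 in capitals.
Nucleotides 1334 to 1395: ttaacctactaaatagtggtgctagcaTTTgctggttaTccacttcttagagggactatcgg
Nucleotides 1564 to 1594: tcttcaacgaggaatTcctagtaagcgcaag
Nucleotides 1630 to 1669: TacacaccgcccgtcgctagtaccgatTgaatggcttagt
Nucleotides 1176 to 1206: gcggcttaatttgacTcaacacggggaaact
Nucleotides 1755 to 1800: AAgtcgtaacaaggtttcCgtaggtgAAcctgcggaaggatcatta

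A hit is a read that covers a nucleotide, so that neighbouring nucleotides share reads, with 31.7 to 32.6 hits per substitution here. Because the deposited pileups come from reads with exactly 1 T-C mutation, each read gives at most 1 substitution, and substitutions count reads nearly one by one. The libraries held 614992 mapped reads for Get4-HTP 1, 933943 for Get4-HTP 2 and 107659 for WT. Of these, 7508, 6093 and 3173 reads lay in 18S rRNA, and the head and 3′ minor domain held 1200, 850 and 582 of their substitutions. All substitutions were at T, and no deletion was listed. A count of 3 reads corresponds to 4.88 and 3.21 per 1000000 mapped reads in the Get4-HTP libraries and to 27.9 in WT, so that ratios are least precise where WT is low. With 1 WT library no test between Get4-HTP and WT was possible, and a difference is described by whether both Get4-HTP libraries lie on the same side of WT and by Wilson 95% intervals, which cover counting error only.

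The head and 3′ minor domain were sparsely covered in Get4-HTP and in WT. Their nucleotides held 16.7% of the 18S hits in Get4-HTP 1 and 14.5% in Get4-HTP 2, against 19.0% in WT. All values lie below the 36.4% of the 18S length that these nucleotides make up. The mean share of the Get4-HTP libraries was 15.6% ± 1.56 (SD, n = 2), and Get4-HTP 1 and Get4-HTP 2 had ratios to WT of 0.883 and 0.767. Substitutions gave the same order. They made up 16.0% (15.2 to 16.8) of the 18S substitutions in Get4-HTP 1, 14.0% (13.1 to 14.9) in Get4-HTP 2 and 18.4% (17.1 to 19.8) in WT. The interval of WT did not overlap with those of the Get4-HTP libraries. These 2 did not overlap with each other either, so that libraries of the same strain differed by more than counting error. The median nucleotide had 41 and 33 hits in the Get4-HTP libraries and 22 in WT, while in the remaining 1144 nucleotides of 18S rRNA it had 136, 89.5 and 46. T makes up 26.2% of the region and 29.5% of the rest.

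The direction of this difference depended on what the hits were divided by. The bin of nucleotides 301 to 350 in the body was the highest of 18S rRNA in Get4-HTP 2. It held 8.8% of the 18S substitutions in Get4-HTP 1, 21.4% in Get4-HTP 2 and 5.18% in WT. The intervals of the substitution shares above include this bin and were not computed without it. In hits without this bin, Get4-HTP 1 had a ratio to WT of 0.909 and Get4-HTP 2 of 0.901. Set against all hits on RDN37, the whole 35S precursor, it was 0.939 and 0.588. With the 25S stretch around the maximum of Get4-HTP taken out of these hits, it turned to 1.13 in both libraries. Per 1000000 mapped reads the domain had 63672 hits in Get4-HTP 1, 28810 in Get4-HTP 2 and 171124 in WT, ratios of 0.372 and 0.168. The rest of 18S rRNA was lower on this scale as well, with ratios of 0.433 and 0.232.

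The 3′ major part was below WT in both Get4-HTP libraries and the 3′ minor part slightly above it. The 3′ major part, nucleotides 1145 to 1637, held 14.4% of the 18S hits in Get4-HTP 1, 12.3% in Get4-HTP 2 and 16.9% in WT. The 3′ minor part, nucleotides 1638 to 1800, runs from the first nucleotide of helix 44 to the 3′ end. It held 2.32% and 2.18% in the Get4-HTP libraries and 2.04% in WT. Of the 3 full bins of 50 nucleotides within the minor part only 1651 to 1700 was above WT (1.76 and 1.69), whereas 1701 to 1750 (0.830 and 0.450) and 1751 to 1800 (0.724 and 0.743) were below it in both libraries. In substitutions the minor part did not stand apart from WT, with 2.12% (1.82 to 2.47) and 1.95% (1.64 to 2.33) of the 18S substitutions in Get4-HTP and 2.05% (1.61 to 2.61) in WT. Among the hits of the region alone the minor part accounted for 13.9% in Get4-HTP 1, 15.03% in Get4-HTP 2 and 10.8% in WT, while it makes up 24.8% of the length. The mean ratio to WT was 1.34 ± 0.0761 (SD, n = 2). Both ratios share the same WT library, so that this SD leaves out the error of WT. In substitutions of the region the minor part had 13.25% in Get4-HTP 1, 14% in Get4-HTP 2 and 11.2% in WT. Coverage of the minor part was low in each library, with a median of 28 and 20 hits per nucleotide in Get4-HTP and 8 in WT.

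**Figure D1:**
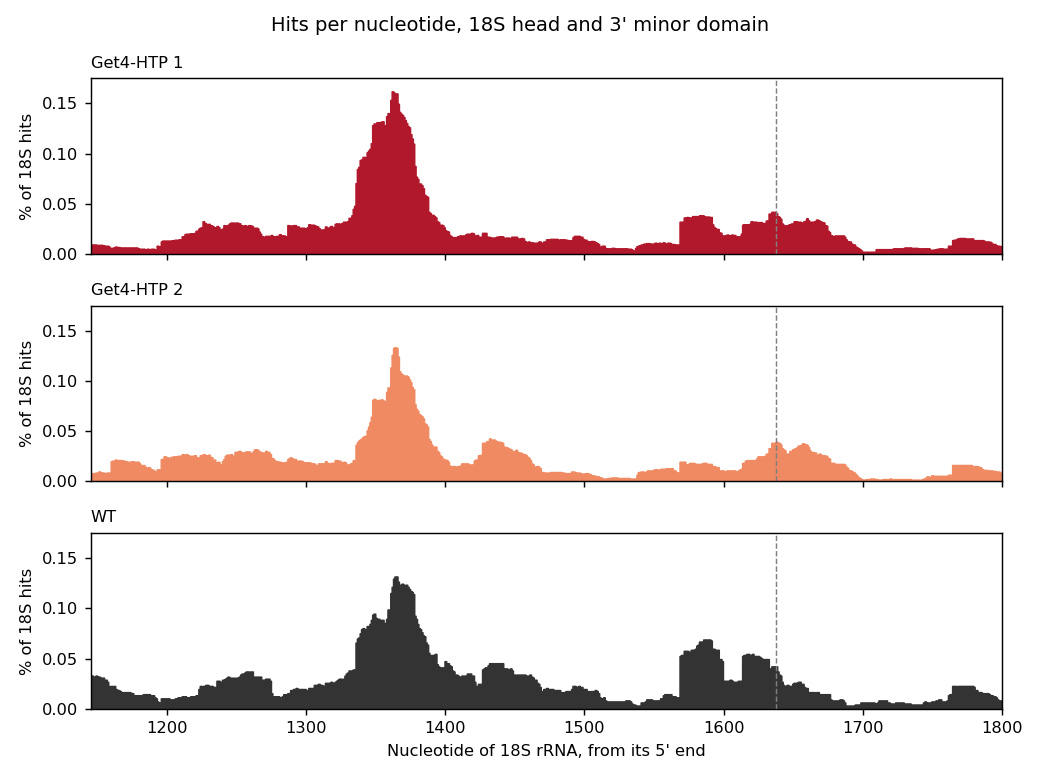
Hits at each nucleotide from 1145 to 1800 of 18S rRNA, as percent of all 18S hits of the library, for Get4-HTP 1, Get4-HTP 2 and WT, with a dashed line at nucleotide 1638, where the 3′ minor part starts. The highest stretch lies around nucleotides 1362 to 1364 in each library, and a second one at nucleotides 1569 to 1642 reaches 52.3% of the region's maximum in WT.

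One peak dominated the head in all 3 libraries. The highest nucleotide was 1362 in Get4-HTP 1, with 379 hits, and 1364 in Get4-HTP 2 and in WT, with 247 and 128 hits. It reached 47.1% and 21.8% of the maximum of 18S rRNA in the Get4-HTP libraries and 27.5% in WT, so that higher peaks lay in the body. After each Get4-HTP library had been set relative to its maximum and the 2 averaged, nucleotides 1334 to 1395 stayed above 20%. This stretch of 62 nucleotides, the first sequence above, held 37.6% of the region's hits in Get4-HTP 1, 31.03% in Get4-HTP 2 and 28.8% in WT. Get4-HTP set the limits of the stretch, so that these shares are a description. As a share of all 18S hits it had 6.29% in Get4-HTP 1, 4.51% in Get4-HTP 2 and 5.46% in WT. The WT value thus lay between the 2 Get4-HTP values. Substitutions gave 6.20% (5.68 to 6.77), 4.55% (4.05 to 5.10) and 5.46% (4.72 to 6.31), and the Get4-HTP libraries differed from each other by more than either did from WT. The highest nucleotide had 616 hits per 1000000 mapped reads in Get4-HTP 1, 264 in Get4-HTP 2 and 1189 in WT.

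Within the peak, the leading T position differed between Get4-HTP and WT. T1361 was the most substituted T of the whole region in both Get4-HTP libraries, and T1372 in WT. Both were named by these counts, so that their comparison with WT is a description. T1361C was found in 117 of 359 reads over this nucleotide in Get4-HTP 1 (32.6%, 27.9 to 37.6), in 93 of 210 in Get4-HTP 2 (44.3%, 37.7 to 51.0) and in 17 of 112 in WT (15.2%, 9.70 to 23.0). Both Get4-HTP libraries were above WT, by 2.15-fold and 2.92-fold, and their intervals did not overlap with that of WT. The intervals of the 2 Get4-HTP libraries did not overlap with each other either. Libraries thus differed by more than counting error, and the lack of overlap with 1 WT library does not set Get4-HTP apart. T1361C made up 25.2% and 33.6% of the substitutions of the peak in Get4-HTP and 9.83% (6.23 to 15.2) in WT. Per 1000000 mapped reads, however, T1361C had a count of 190 in Get4-HTP 1, 99.6 in Get4-HTP 2 and 158 in WT, which places WT between them.

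T1372, 11 nucleotides further, had the opposite tendency. T1372C was found in 68 of 305 reads in Get4-HTP 1 (22.3%, 17.98 to 27.3), in 67 of 195 in Get4-HTP 2 (34.4%, 28.1 to 41.3) and in 52 of 120 in WT (43.3%, 34.8 to 52.3). The interval of Get4-HTP 2 overlapped with that of WT, and that of Get4-HTP 1 did not. Here too the intervals of the 2 Get4-HTP libraries did not overlap with each other. T1372C made up 14.6% and 24.2% of the peak's substitutions in Get4-HTP and 30.1% in WT. Because a read carries only 1 substitution, reads substituted at T1361 cannot be substituted at T1372, and the 2 shares are not independent.

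The T positions between them had no common direction. T1362C was found in 16.1% of reads in Get4-HTP 1, 15.9% in Get4-HTP 2 and 13.6% in WT. T1363C was found in 12.5%, 6.50% and 11.1% of reads, in the same order of libraries. T1370C was found in 21 reads of Get4-HTP 1 (6.58%), 3 of Get4-HTP 2 (1.55%) and 14 of WT (11.7%), below WT in both Get4-HTP libraries. T1366C was found in 4.57% and 2.61% of reads in Get4-HTP and 2.44% in WT, and T1369C in 2.47% and 1.02% in Get4-HTP and 1.65% in WT.

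**Figure D2:**
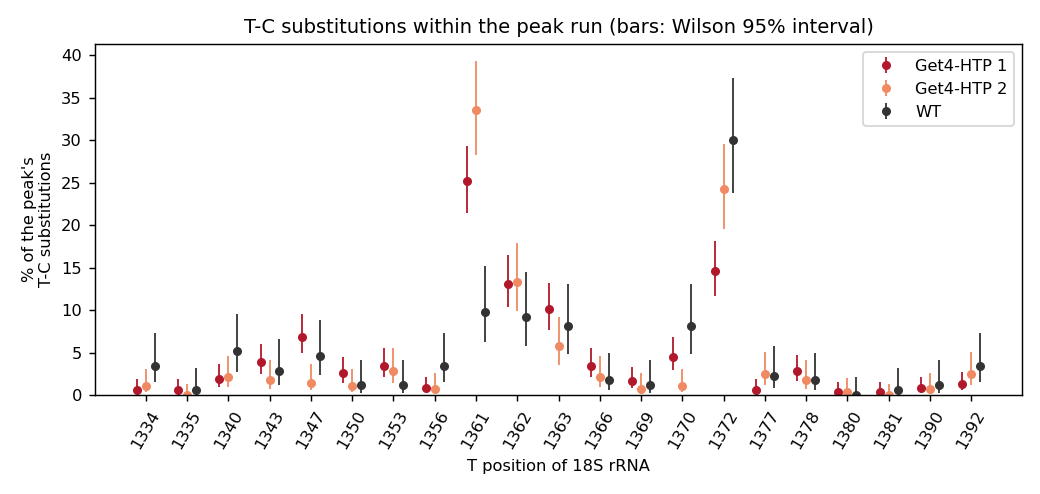
Share of each of the 21 T positions in the T-C substitutions of the peak at nucleotides 1334 to 1395, in percent, for Get4-HTP 1 (465 substitutions), Get4-HTP 2 (277) and WT (173). Bars are Wilson 95% intervals. T1361 is highest in both Get4-HTP libraries at 25.2% and 33.6%, and T1372 is highest in WT at 30.1%.

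A difference was counted where the share of substituted reads changed at least 2-fold from WT in both Get4-HTP libraries. T positions with at least 100 hits in each library were considered, which left 8 of the 172 T positions of the region, all of them in the peak. The other 164 were not compared in this way. T1361 was counted as higher, 1 of 8, against 6.99% of all such T positions in the 8 segments. No T position was counted as lower, against 9.68% of all. With 8 positions these shares cannot be told from the background. Among the 32 T positions of the rest of 18S rRNA that met the minimum, 3 were higher and 0 lower.

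Substitutions were spread over most of the T positions. Of the 172 T positions 142 were substituted at least once in Get4-HTP 1, 124 in Get4-HTP 2 and 137 in WT, with 99 (57.6%) substituted in all 3 libraries. In the more deeply covered rest of 18S rRNA this was 74.0% of 338. The 10 positions without a substitution in any library had between 3 and 43 hits. The 5 leading T positions of each library held 29.9% of the substitutions of the region in Get4-HTP 1, 29.5% in Get4-HTP 2 and 24.2% in WT. T positions that follow an A were 18.6% of all T positions but carried 31.8% and 35.4% of the substitutions in Get4-HTP, and 26.3% in WT. T1361, which alone held 9.75% and 10.9% in Get4-HTP and 2.92% in WT, and T1372 are among them. In the rest of 18S rRNA the order was the opposite, with 34.7% and 31.2% in Get4-HTP and 39.6% in WT at the 28.5% of T positions that follow an A.

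**Figure D3:**
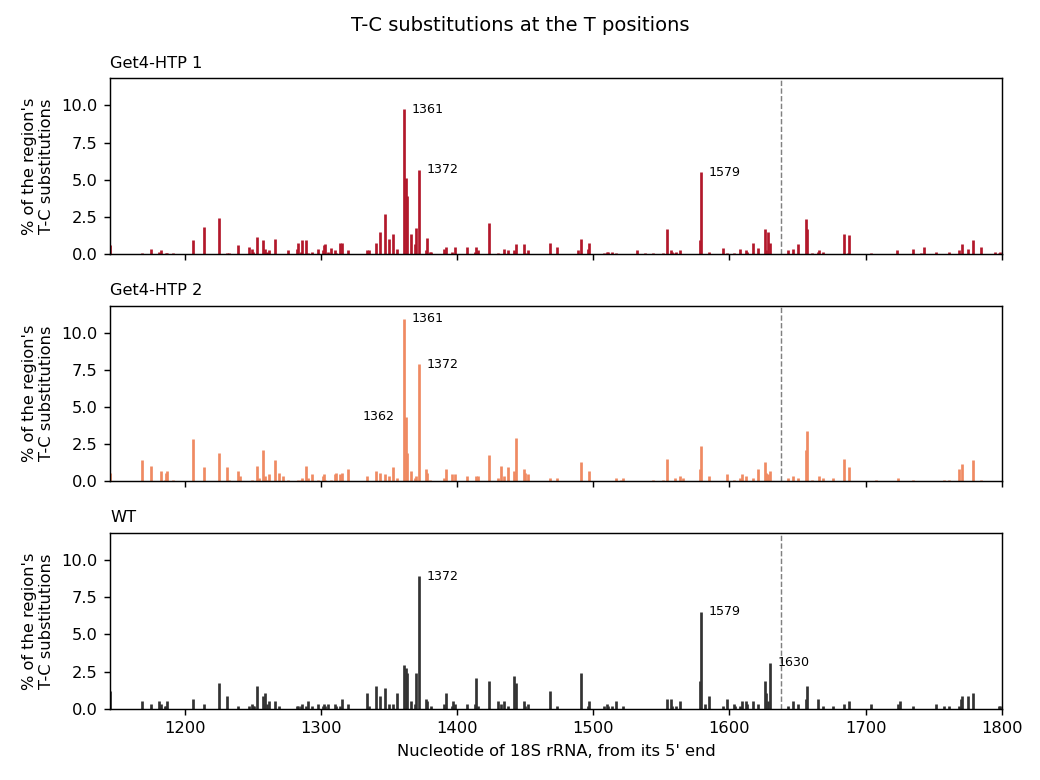
Share of the region's T-C substitutions at each of its 172 T positions, in percent, along 18S rRNA for Get4-HTP 1, Get4-HTP 2 and WT, with the 3 leading positions of each library numbered and a dashed line at nucleotide 1638. T1361 leads in Get4-HTP 1 with 9.75% and in Get4-HTP 2 with 10.9%, while T1372 leads in WT with 8.93%.

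T1579 was substituted in most of its reads, in Get4-HTP as in WT. T1579C was present in 66 of 88 reads in Get4-HTP 1 (75.0%, 65.0 to 82.9), in 20 of 33 reads in Get4-HTP 2 (60.6%, 43.7 to 75.3) and in 38 of 57 reads in WT (66.7%, 53.7 to 77.5). The 3 intervals overlapped. Among the 56 T positions with at least 30 hits in each library, a minimum set after the values had been seen, T1579 ranked first in each library. Below that minimum, T1554C was found in 20 of 26 reads in Get4-HTP 1 (76.9%), 13 of 21 in Get4-HTP 2 (61.9%) and 4 of 8 in WT. T1491C was found in 12 of 32 reads in Get4-HTP 1 (37.5%), 11 of 18 in Get4-HTP 2 (61.1%) and 14 of 19 in WT (73.7%), so that the first rank depended on the minimum. The median of the 56 positions was 6.16% and 7.34% of reads in Get4-HTP and 6.74% in WT. T1579C had a count of 107 per 1000000 mapped reads in Get4-HTP 1, 21.4 in Get4-HTP 2 and 353 in WT.

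T1579 lies in a stretch whose limits were set by WT, so that its ratios to WT are a description too. From nucleotide 1569 to 1642 WT remained above 20% of its maximum, and its highest nucleotide there, 1586, had 88 hits in Get4-HTP 1, 34 in Get4-HTP 2 and 67 in WT. This is 23.2% and 13.8% of the maximum of the region in the Get4-HTP libraries and 52.3% in WT. The stretch held 2.27% of the 18S hits in Get4-HTP 1, 1.46% in Get4-HTP 2 and 3.61% in WT, ratios of 0.627 and 0.405. At its 3′ side T1630C was found in 9 of 70 reads in Get4-HTP 1 (12.9%, 6.91 to 22.7), in 6 of 47 in Get4-HTP 2 (12.8%, 5.98 to 25.2) and in 18 of 48 in WT (37.5%, 25.2 to 51.6). T1630 was named because it was among the 5 T positions with most substitutions in WT, but in neither Get4-HTP library. That both Get4-HTP libraries were below WT there is thus a description. T1630 also fell short of the minimum of 100 hits. T1626, 4 nucleotides before it, was substituted in similar shares of reads, 27.0% and 23.9% in Get4-HTP and 22.0% in WT.

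Of the stretches above 20% of the maximum in the Get4-HTP mean profile, one in the first strand of helix 44 had the highest ratio to WT. The stretch was chosen through Get4-HTP, and in WT only nucleotides 1654 and 1655 of it passed 20%, so that the ratio is a description. Nucleotides 1648 to 1669 held 0.709% and 0.707% of the 18S hits in the Get4-HTP libraries and 0.457% in WT, a ratio of 1.55 in both. The reads behind it were few, with 64 substitutions in Get4-HTP 1, 55 in Get4-HTP 2 and 20 in WT. In substitutions this was 0.853% (0.669 to 1.09) and 0.903% (0.695 to 1.17) of 18S in Get4-HTP and 0.631% (0.409 to 0.973) in WT, with overlapping intervals. T1657, in the third sequence above, was substituted in 20 of 72 reads in Get4-HTP 1 (27.8%, 18.8 to 39.0), in 29 of 70 in Get4-HTP 2 (41.4%, 30.6 to 53.1) and in 9 of 24 in WT (37.5%, 21.2 to 57.3). Its neighbour T1656 was substituted in 28, 18 and 4 of 73, 67 and 24 reads, in the same order of libraries. The share of substituted reads at T1657 thus did not stand apart from WT. Per 1000000 mapped reads the stretch had 2698 and 1403 hits in Get4-HTP and 4124 in WT, so that it was higher only within 18S rRNA. Nucleotides 1631 to 1643, which contain the first nucleotide of helix 44, were slightly below WT, with ratios of 0.959 and 0.902.

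The remaining stretches above 20% of the maximum were short. Nucleotides 1427 to 1439 held 0.230% of the 18S hits in Get4-HTP 1, 0.521% in Get4-HTP 2 and 0.566% in WT, so that the Get4-HTP libraries disagreed. T1443, next to this stretch, was substituted in 8 of 36 reads in Get4-HTP 1, in 25 of 62 in Get4-HTP 2 and in 10 of 39 in WT (22.2%, 40.3% and 25.6%). Nucleotides 1249 to 1252 were close to WT, with ratios of 0.987 and 0.954. The sixth was the single nucleotide 1226.

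None of the 13 full bins of 50 nucleotides within the region differed from WT by the rule used here. These 13 bins, which start at nucleotide 1151, were compared by their share of the 18S hits, and a bin was counted where its ratio to WT passed 2-fold in both Get4-HTP libraries. None of the 13 was higher, against 2.88% of the 139 bins of all segments, and none was lower, against 13.7%. With 13 bins these shares cannot be told from the background. Median ratios to WT were 0.830 for Get4-HTP 1 and 0.734 for Get4-HTP 2. A total of 8 bins were below WT in both libraries, 2 were above WT in both, and 3 went in opposite directions. Per 1000000 mapped reads 11 of the 13 bins were lower in both (84.6%), against 78.4% of all bins and 12 of 22 in the rest of 18S rRNA. That count is thus near the background of the whole rRNA.

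The first 6 nucleotides of the region lay outside these bins. The bin 1101 to 1150, which has only its last 6 nucleotides in the region, was counted as lower, with ratios to WT of 0.433 and 0.314 in the Get4-HTP libraries. Nucleotides 1145 to 1157, a stretch chosen because WT stayed above 20% of its maximum there, had 270 hits in Get4-HTP 1, 205 in Get4-HTP 2 and 391 in WT. This was 0.115% and 0.111% of the 18S hits in Get4-HTP and 0.402% in WT, ratios of 0.287 and 0.275. WT set the limits of this stretch, so that its ratios are a description. Only 7 and 5 substitutions in Get4-HTP and 7 in WT stand behind them.

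Individual bins differed in how far they departed from WT. Nucleotides 1651 to 1700 in helix 44 were highest relative to WT, at 1.76 and 1.69, with 2635 and 2008 hits in Get4-HTP and 611 in WT. The substitutions of this bin were 1.17% (0.953 to 1.44) and 1.25% (0.998 to 1.56) of 18S in Get4-HTP and 0.758% (0.510 to 1.12) in WT, and the intervals overlapped. The second bin above WT in both libraries was 1201 to 1250, at 1.20 and 1.24. Nucleotides 1551 to 1600, with T1579, were lowest relative to WT in Get4-HTP 2 at 0.359, and had a ratio of 0.594 in Get4-HTP 1. This bin had 2893 hits in Get4-HTP 1, 1361 in Get4-HTP 2 and 2041 in WT. Its substitutions were 1.56% (1.30 to 1.87) and 0.903% (0.695 to 1.17) of 18S in Get4-HTP and 2.34% (1.86 to 2.92) in WT, so that the interval of WT lay above that of Get4-HTP 2 and overlapped narrowly with that of Get4-HTP 1. The bin of the peak, 1351 to 1400, was the highest of the region in each library and had ratios of 1.10 and 0.863.

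**Figure D4:**
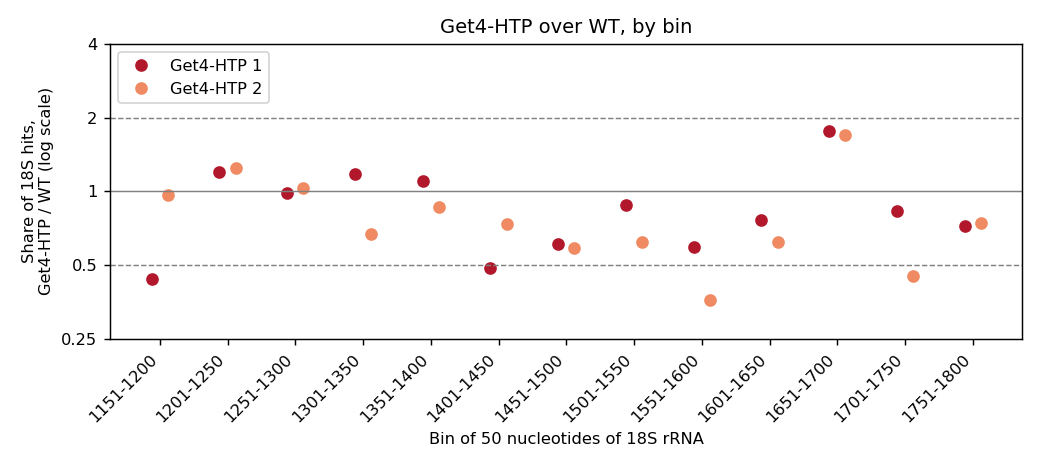
Ratio of the share of 18S hits in Get4-HTP to that in WT for the 13 bins of 50 nucleotides, on a log scale, with Get4-HTP 1 to the left of Get4-HTP 2 in each bin, a solid line at 1 and dashed lines at 2-fold in either direction. Nucleotides 1651 to 1700 are highest at 1.76 and 1.69, and no bin passes a dashed line in both libraries.

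The course of hits along the domain was alike in the libraries, tagged or not. Across the 13 bins, on the log2 scale, Pearson's r was 0.877 between the Get4-HTP libraries, 0.869 between Get4-HTP 1 and WT and 0.856 between Get4-HTP 2 and WT (Spearman's rho 0.780, 0.874 and 0.769). The bins share a sequence, its T content and the mapping of reads, and these coefficients are given as a description. In the 22 bins of the rest of 18S rRNA r was 0.836 between the Get4-HTP libraries, 0.814 between Get4-HTP 1 and WT and 0.544 between Get4-HTP 2 and WT.

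Coverage differed among the known functional positions. The T of helix 31 that becomes a hypermodified pseudouridine at the P site, T1191, had 10 hits in Get4-HTP 1, 18 in Get4-HTP 2 and 11 in WT, with 1, 1 and 0 substitutions. The interval of the share in WT reached up to 25.9%. The acetylated C1280 of helix 34 had 42 and 36 hits in Get4-HTP and 12 in WT. C1639 of the decoding site, which carries a 2′-O-methyl group, had 88, 71 and 36 hits. These counts were above the medians of the region, 41, 33 and 22. The decoding adenosine A1755 had 12, 10 and 9 hits. In helix 45 the acetylated C1773 had 37, 30 and 22 hits and the dimethylated A1781 had 32, 28 and 18, each in the order Get4-HTP 1, Get4-HTP 2 and WT. All of these counts are below the top of the peak, and they were too small to set Get4-HTP apart from WT.

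Few reads covered the 3′ end of 18S rRNA in any library, and their number went up and down along it. Nucleotide 1760 had 12 and 10 hits in Get4-HTP and 7 in WT. Nucleotide 1770 had 37 and 30 hits in Get4-HTP and 22 in WT, nucleotide 1799 had 18 and 16 in Get4-HTP and 8 in WT, and the last nucleotide, 1800, had 13 and 8 in Get4-HTP and 7 in WT. The first nucleotide of ITS1 still had 12 and 7 hits in the Get4-HTP libraries and 7 in WT. Its nucleotide 7 had 4 and 3 in Get4-HTP and 4 in WT, and its nucleotide 30 had 16 and 16 in Get4-HTP and 13 in WT, more than nucleotide 1800. A nucleotide on either side of site D was thus covered by similar numbers of reads, and these numbers were too small for a comparison between Get4-HTP and WT.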

How the data were processed

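According to their methods, the authors trimmed reads with Flexbar, discarded short reads, collapsed reads by UMI, mapped them and required exactly 1 T-C mutation per read. The labels name Bowtie2 2.3.4.2, and the file headers name a Bowtie 1 folder. Neither the genome build nor the pyCRAC version is given in the sources used here. The deposited values are counts of hits, substitutions and deletions per nucleotide, raw pyPileup output of the authors. Reads without a substitution were already absent, so that a share at 1 T is taken over reads that were all substituted somewhere. RefSeq lists 2 genes of 18S rRNA, RDN18-1 and RDN18-2, each of 1800 nucleotides, and reads from such copies cannot be told apart. Positions are counted from the first nucleotide of RDN18-2, and no chromosome coordinates are given because the build is not named.

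The region, the lists and the rules were chosen with earlier results of these data known. Hits and substitutions were divided by the 18S sum of each library or by the mapped reads of the header. The start of the 3′ minor part and the other landmarks were found by short motifs that each occur once in 18S rRNA. Named were both parts, the highest nucleotide of each library, stretches above 20% of the maximum of the region in the Get4-HTP mean profile (at most 5 by height), the 5 T positions with most substitutions per library and the 5 with the highest share of substituted reads among those with at least 100 hits, counted bins and the landmarks. Stretches of WT, other T positions and other bins were added to these with their values known. Bins of 50 nucleotides received a pseudocount of 1% of the mean bin. The calls of bins were tested on simulated counts of substitutions drawn independently, whereas hits of neighbouring nucleotides share reads. The calls of T positions were not tested on simulated data. Intervals are Wilson 95% intervals and treat reads as independent. Alternatives changed the denominator, the unit counted, the bin width, the pseudocount, the fold, the minimum of hits, the limit of a stretch, the boundary and the Get4-HTP libraries included. Python 3.11.15, numpy 2.4.6, scipy 1.17.1, pandas 2.3.3 and matplotlib 3.10.9 were used.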

Additional observations from a re-analysis of the deposited data

How the results depend on the processing

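No paired analysis was possible because WT has 1 library and the groups share 1 replicate number. The share of 18S hits (mean ratio to WT 0.825) was 0.767 to 0.883 with either Get4-HTP library left out, 0.763 as a share of RDN37, and turned to 1.13 as a share of RDN37 without the 25S stretch, whose own hits leave the denominator there. Per 1000000 mapped reads, the ratio of 0.270 (0.168 to 0.372 with 1 Get4-HTP library left out) became 0.820 per rRNA read. The share of 18S substitutions was 0.760 to 0.871 with either library left out. The minor part's share of the region (1.34) was 1.22 in substitutions, 1.26 with the boundary 10 nucleotides earlier and 1.29 to 1.40 with 1 library left out. Bins counted as higher, 0, became 1 at a fold of 1.5 (1651 to 1700). Bins counted as lower, 0, became 2 at a fold of 1.5 (1451 to 1500 and 1551 to 1600), 11 per 1000000 mapped reads, and 2 to 2 with either library left out, 1151 to 1200 and 1401 to 1450 in Get4-HTP 1 alone and 1551 to 1600 and 1701 to 1750 in Get4-HTP 2 alone. T positions counted as higher, 1, became 3 with a minimum of 50 hits, where 19 were compared. T1353 joined T1361, as did T1380 with 2, 1 and 0 substitutions in Get4-HTP 1, Get4-HTP 2 and WT. T positions counted as lower, 0, became 1 with that minimum (T1356), 1 at a fold of 1.5 (T1370) and 1 to 1 with either library left out (T1377 in Get4-HTP 1 alone, T1370 in Get4-HTP 2 alone). A minimum of 200 hits left no T position to compare. The correlation between the Get4-HTP libraries (0.877) was 0.944 on a linear scale, 0.855 in bins of 25 nucleotides and 0.849 in substitutions. That of Get4-HTP 1 with WT (0.869) was 0.923, 0.842 and 0.910 under these settings, and that of Get4-HTP 2 with WT (0.856) was 0.899 and 0.804 under the first of them. The 6 stretches became 1 at a limit of 50%. The cause of these shifts was not tested. Depth limits most of these values, since WT held 582 substitutions in the region and 65 in the minor part.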
